A study of Mus musculus with 6 samples.

Results

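Luminal progenitors of the virgin Robo1+/+ mammary gland were described from 3 poly(A)+ RNA-seq libraries, gh03, gh09 and gh15, of 6 libraries in the series. They were chosen by genotype label alone, and all 18537 known-gene clusters of the deposited table were used. Some of the genes described were picked with their values known. The Robo1+/+ mice were untreated adult nulliparous females from crosses of Robo1+/- with Robo1+/- animals, given in the methods as littermates or age-matched, and each library held RNA of 2 animals. The cells were sorted as Lin-CD24loCD29+CD61+, and the study's methods also list antibodies against CD14 and CD117, so the RNA of these surface proteins is no independent check of the cells. The other 3 libraries, from Robo1-/- mice, are not compared here. Pooled animals give 3 values per gene, whose spread holds both animal and technical differences. All statements below are descriptions without a statistical test, because no groups were compared.

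In the virgin mammary gland, a bilayered epithelium of inner luminal and outer basal cells forms a ductal tree inside a fat pad. The luminal layer holds hormone-sensing cells, which carry estrogen and progesterone receptors and relay hormone signals to their neighbours, and progenitors that give rise to the milk-secreting alveolar cells of pregnancy. In those progenitors prolactin, acting through its receptor, JAK2 and STAT5, drives the alveolar programme together with the transcription factor ELF5, while Notch signaling steers luminal fate. Caseins, the main milk proteins, lie in 1 gene cluster, and STAT5 is known to bind sites of the form TTC, any 3 bases, GAA in their promoters.

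The casein promoters are shown first because 3 genes of this cluster differed at least 4-fold between the libraries at values well above the floor. On GRCm38.p6 (RefSeq), the 250 bases before the start of Csn1s1 lie at chr5:87665958-87666207 on the plus strand, and those before Csn2 at chr5:87699426-87699675 on the minus strand. Each is printed 5′ to 3′ with the letters that match TTC, any 3 bases, GAA in capitals.
Csn1s1: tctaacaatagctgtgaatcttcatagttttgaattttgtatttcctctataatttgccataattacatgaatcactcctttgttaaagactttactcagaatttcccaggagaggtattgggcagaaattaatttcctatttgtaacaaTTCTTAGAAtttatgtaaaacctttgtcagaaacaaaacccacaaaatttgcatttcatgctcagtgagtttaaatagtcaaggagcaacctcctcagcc
Csn2: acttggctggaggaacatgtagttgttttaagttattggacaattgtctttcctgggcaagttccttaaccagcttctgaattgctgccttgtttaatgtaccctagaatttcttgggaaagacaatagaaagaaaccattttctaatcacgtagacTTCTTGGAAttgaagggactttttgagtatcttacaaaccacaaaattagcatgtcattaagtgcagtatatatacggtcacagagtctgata
The match began 100 bases before the start of Csn1s1 and 93 bases before that of Csn2. The pattern reads the same on both strands, so 1 search covers both. Of the 27025 genes with a promoter window, 8.13% held a match in these 250 bases. Of the 22 milk protein genes 16 had a window, and 4 of those held a match, Csn1s1, Csn2, B4galt1 and Glycam1. With the 50 bases after the start included, 9.55% of all genes and 6 of the 16 milk protein genes held a match, Csn1s2a and Pigr being added. A match describes these letters and does not show that a factor binds there. Csn3 was among the 6 milk protein genes whose promoters were not searched here.

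The libraries held 10494297 (gh03), 17433868 (gh09) and 14298652 (gh15) reads in the table, which were recovered from the deposited normalized read counts because 1 read was worth a fixed value in each library (1.27, 0.784 and 0.938). The normalized read count is called the value below. A gene was called detected where each library had at least 3 reads, and undetected where each had fewer than 3. Of the 18537 clusters, 14607 (78.8%) were detected, 2254 (12.2%) were undetected, and 1676 lay between. Every cluster of the table had at least 1 read in some library of the series, and 397 of them had none in the 3 Robo1+/+ libraries. Intervals and floors of this kind cover counting error only. High is used below for the top 10% of clusters by mean value (10%, by construction, with a mean value of at least 1754). Reads in a gene grow with its length, so a rank by value, and being high, reflect length as well as level. Levels of different genes are compared per kilobase of the longest annotated transcript, which was known for 16480 clusters.

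All 6 marker genes of luminal progenitors were high in every library. Krt8, a luminal keratin, had values of 35984, 40523 and 41606 in gh03, gh09 and gh15 (39371 ± 2983, SD, n = 3) and ranked 8 of all clusters. Its partner Krt18 had 28162, 29550 and 29475 (29062 ± 781) and ranked 15. The 3 libraries overlapped closely for both keratins, with a highest value 1.16 and 1.05 times the lowest. Csn3, which encodes kappa-casein, had 7755, 8119 and 9771 (8548 ± 1075). Kit, the receptor tyrosine kinase CD117, had 5644, 5430 and 4762 (5278 ± 460), and Cd14, a co-receptor for bacterial lipopolysaccharide, had 3835, 4223 and 4353 (4137 ± 270). Elf5, the alveolar transcription factor, had 3901, 3077 and 2366 (3115 ± 768) and ranked 838 by value. Its highest value, in gh03, was 1.65 times its lowest, in gh15, the widest range among these markers. Per kilobase of transcript the order was Krt8 (21812), Krt18 (20759), Csn3 (4885), Cd14 (2632), Kit (1007) and Elf5 (955), where the libraries of Krt8 overlapped those of Krt18, and those of Kit overlapped those of Elf5.

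Of the genes whose products were selected in the sort, Cd24a had values of 10675, 14373 and 14034, and Itgb1, which encodes CD29, had 7258, 7275 and 8201. Itgb3, which encodes CD61, ranked only 5135, with values of 387, 879 and 519. Of the genes whose products were used to remove other cells, Ptprc (CD45) had 0, 0 and 1 read and Enpep (BP-1) had 4, 0 and 1. Pecam1 (CD31) was detected at values of 48.4, 70.5 and 38.5.

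**Figure D1:**
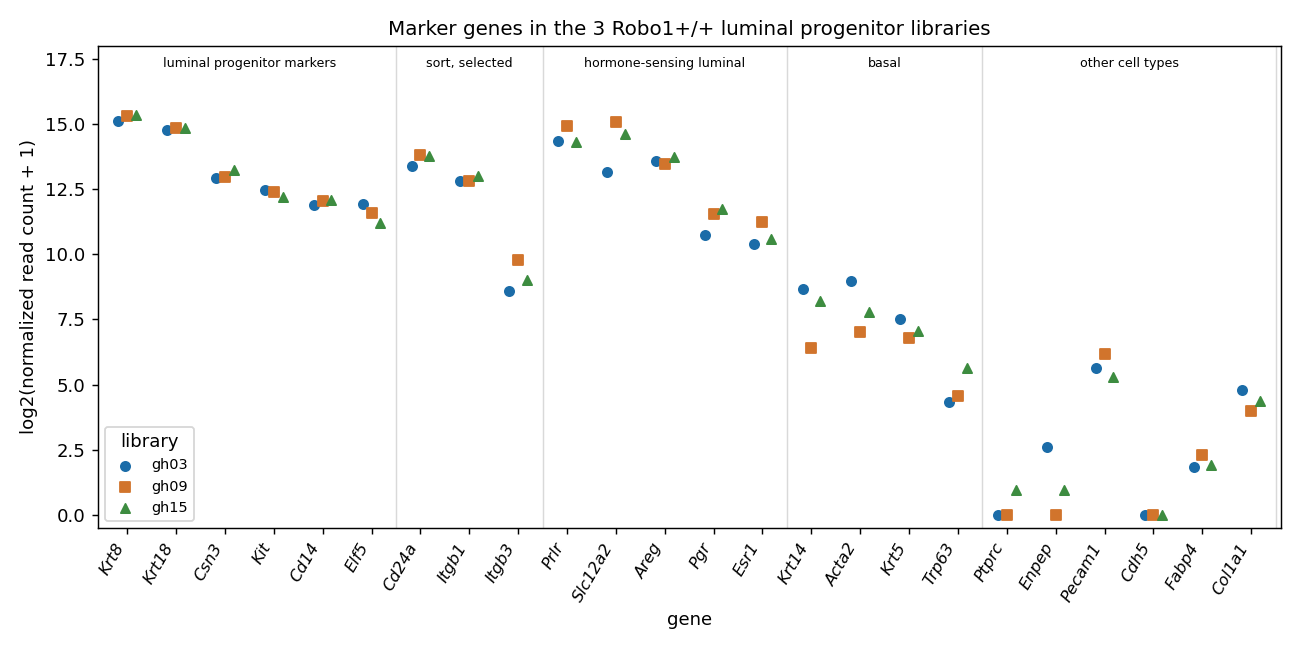
Values of marker genes in each Robo1+/+ library, as log2(normalized read count + 1), 1 point per library and gene. The luminal progenitor markers and the hormone-sensing genes shown lie above the basal genes, and Ptprc and Cdh5 lie at or near 0.

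Genes of hormone-sensing luminal cells were abundant beside those of progenitors. Of 16 genes of that lineage, 11 were high (68.8%). All 6 luminal progenitor markers were high, and so were 6 of 18 further genes linked to luminal progenitors (33.3%). Prlr, the prolactin receptor, ranked 21 with values of 21166, 31025 and 20097. Prolactin also acts through Prlr in progenitors, so its level does not mark hormone-sensing cells alone. Slc12a2, a sodium-potassium-chloride cotransporter, ranked 24 with 9214, 34256 and 25032. Both receptors that define hormone-sensing cells were also high by mean value, Pgr (progesterone receptor) at 1721, 3003 and 3394 and Esr1 (estrogen receptor alpha) at 1346, 2430 and 1553. Esr1 was above the border of 1754 in gh09 only, and Pgr was below it in gh03. Areg, the amphiregulin gene through which estrogen acts on neighbouring cells, had 12145, 11195 and 13725, and Cited1 had 3557, 2702 and 3150. Of the 16 genes, 8 were lowest in gh03, among them Pgr, Slc12a2 and Prom1, and 6 were highest there. The 3 that differed at least 4-fold between the libraries, Tnfsf11, Calca and Tph1, were all highest in gh03. Areg and Cited1 varied by factors of 1.23 and 1.32. In RNA from a sorted population, fewer cells of a type and less RNA per cell cannot be told apart. The share of hormone-sensing cells in the sort was not tested.

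The 18 further progenitor genes were all detected. Aldh1a3, a retinaldehyde dehydrogenase, had values of 1972, 6377 and 6008, with gh03 apart from the others. Ehf, an ETS factor, had 5102, 2840 and 3778. Sox9 had 2555, 4011 and 3539, Elf3 had 1327, 2595 and 2670, and Runx1 had 1527, 1959 and 2400. Sox10 lay just below the top 10% at 1807, 1305 and 1572. Per kilobase Aldh1a3 (1391) and Elf3 (1099) were the highest of the list and Bcl11a, a zinc finger factor, was the lowest (7.95), with values of 71.3, 36.8 and 34.7.

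Marker lists of other cells were low. Of 19 basal and myoepithelial genes 18 were detected and only Itga6, the alpha6 integrin that luminal progenitors also carry, was high, at 5340, 5054 and 6790. Krt14 had 407, 84.7 and 296, Acta2 508, 129 and 219, and Krt5 181, 111 and 133. Trp63, the defining transcription factor of basal cells, had 19.1, 22.7 and 48.8. The summed value of the basal list ran from 6361 to 8749 per library, of which Itga6 made up most. Per kilobase, the median of the 19 basal genes was 33.1 and that of the 16 hormone-sensing genes 669. For the 6 progenitor markers it was 3758, for the 18 further progenitor genes 351, and over all clusters with a length 75.4. The 6 markers include Krt8 and Krt18, keratins of luminal cells and the highest of the 6 per kilobase. Their median is therefore no measure of progenitor against hormone-sensing RNA.

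Leukocyte genes were nearly empty. Of 12 with a row, 2 were detected, Csf1r and Itgam, and 6 were undetected, Emr1, Cd79b, Fcer1g, Ptprc, Itgax and Tyrobp. Their summed value lay between 26.3 and 38.2 per library. Endothelial genes Kdr and Cdh5 were undetected, while Vwf, better known from endothelium, had 2167, 1437 and 570 and Eng had 266, 761 and 772. The summed endothelial list ran from 1514 in gh15 to 2522 in gh03. It came mostly from Vwf in gh03 and gh09, while Eng was above Vwf in gh15. Of 10 fibroblast genes 8 were detected and none was high, with Dcn at 389, 655 and 523 and Col1a1 at 26.7, 14.9 and 19.7. Their sums lay between 822 and 904. The 7 pericyte genes were low apart from Notch3 (sums of 3611 to 3882), 3 of them detected and Kcnj8 undetected. Of 3 adipocyte genes with a row only Lpl was detected, at 369, 66.6 and 197, and Fabp4 had 2.54, 3.92 and 2.81, while Retn was undetected (sums of 71.3 to 373). Of 3 erythroid genes Hba-a2 had 146, 118 and 21.6 and Hbb-b1 was undetected (sums of 41.3 to 181). The 9 class II MHC genes, of antigen-presenting cells, summed to between 149 and 296, and none was high. Of 10 mesenchymal genes 6 were detected and none was high (sums of 320 to 1100), with Vim at 155, 114 and 101 and Twist1 undetected. Xist, the RNA of the inactive X chromosome, ranked 20 with values of 26417, 23349 and 24032, and the 5 Y-linked symbols searched had no row.

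The clusters that took the most reads included genes of translation, the cytoskeleton and chaperones. Eef1a1, an elongation factor, ranked first with values of 102810, 69332 and 65639. Ahnak, Igfbp5, Hsp90ab1, Actg1, Eef2, Krt8, 1600029D21Rik, Trf, Hspa8, Ddx5, Krt18, Actb, Fcgbp and Xist were also among the first 20, with DQ539915, Cytb, AK018753 and mt-Nd4. The last 4 belong to a run of 10 neighbouring clusters around mt-Nd4, a mitochondrial gene, which took 2.2%, 1.3% and 1.7% of the summed value in gh03, gh09 and gh15. Igfbp5, a secreted binder of insulin-like growth factors, had 41977, 57550 and 44484. Fcgbp, a mucin-like secreted protein, was the most variable of the 20, with 23798, 42971 and 10547.

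No small set of genes dominated. The 10 clusters with the highest mean value held 3.5% of the summed mean value, the first 100 held 15.6% and the first 1000 held 48.3%. In all, 1087 clusters were needed to reach 50% of it. Per kilobase of transcript, 8 of the 20 leading genes by value stayed among the first 20. Eef1a1, Actg1, Krt8 and Krt18 led that order, at 44181, 22101, 21812 and 20759 per kilobase, and 9 of the 20 encoded ribosomal proteins. Tpt1, Ptma and Gm15450 were also among the 20. The value of Gm15450, named as a predicted gene, and those of ribosomal proteins and mitochondrial clusters are uncertain, because such genes have near-identical copies and the rule for reads with several places was not given.

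**Figure D2:**
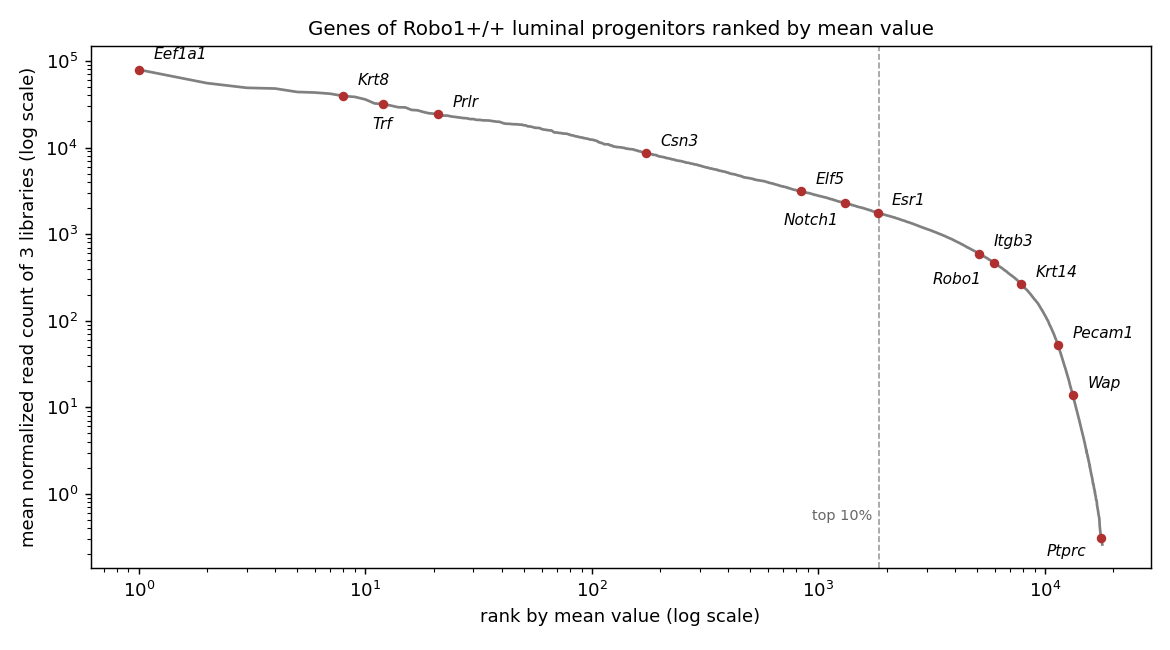
Mean value of the 3 Robo1+/+ libraries for each cluster against its rank, both on log scales, with named genes in red and the border of the top 10% dashed; the 397 clusters at 0 are not drawn. Krt8 at rank 8 and Prlr at rank 21 lie near the top, Robo1 at rank 5945 and Krt14 at rank 7872 lie in the middle, and Ptprc lies at the end.

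Milk genes were abundant in these virgin cells. Of 22 milk protein genes 19 were detected and 13 were high (59.1%). Trf, which encodes transferrin, ranked 12 with values of 34380, 33688 and 27309. Mfge8, a milk fat globule protein, had 17788, 21907 and 15436, and Ltf, which encodes the iron-binding lactoferrin, had 5244, 20367 and 12841. Btn1a1, the butyrophilin of milk fat globules, had 5093, 7579 and 6477. Lalba, the alpha-lactalbumin gene needed for lactose synthesis, had 1323, 1748 and 1367, just below the top 10%. The genes of full lactation were not alike. Wap, the whey acidic protein gene, had only 20.4, 8.62 and 12.2, and Glycam1 had 15.3, 1.57 and 4.69. Pthlh had 2, 7 and 10 reads, and Lpo, lactoperoxidase, was undetected.

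The 5 casein genes lie within 1 region of chromosome 5 (NCBI37/mm9), from the start of Csn1s1 at 88095249 to the end of Csn3 at 88361690. In that order along the chromosome they are Csn1s1, Csn2, Csn1s2a, Csn1s2b and Csn3. Csn1s1 had values of 18257, 2317 and 6291, Csn2 had 13697, 1139 and 2832, and Csn1s2a had 3769, 661 and 729. All 3 were highest in gh03 and lowest in gh09, by factors of 7.88, 12.02 and 5.70 on value + 1. Csn1s2b, close to the floor, had 21.6, 4.70 and 10.3, in the same order of libraries. Csn3, at the far end, did not share the pattern, with 7755, 8119 and 9771. Summed, the 5 caseins took 0.326%, 0.090% and 0.146% of the value in gh03, gh09 and gh15. Spp1, which encodes the milk phosphoprotein osteopontin, ran the other way with 1454, 6222 and 8081. Expi (Wfdc18), a whey acidic protein family member, had 9910, 2918 and 5379. The median over the 17 milk genes whose mean value reached 20 was near 0 in every library, at -0.03, 0.05 and -0.03 (log2 difference from the mean of the 3 libraries).

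Genes of innate defence, which many secretory epithelia express, were present in part. Of 28 with a row 23 were detected and 8 were high. Besides Ltf, complement C3 had values of 15513, 7409 and 5568 and Lcn2, a binder of bacterial siderophores, had 7859, 8414 and 10734. Wfdc2 had 4975, 4199 and 3356, and Chi3l1 had 2364, 5606 and 3510. The serum amyloid A genes stood out by spread, with Saa1 at 174, 26.7 and 45.0, Saa2 at 59.8, 8.62 and 23.5 and Saa3 at 54, 0 and 1 reads. Camp, Plunc and Lyz1 were undetected, and Il6 and Il1b lay between 3.75 and 11.5.

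Of 25 keratins 20 were detected and 5 were high. Besides Krt8 and Krt18 these were Krt19 (17028, 21143 and 21456), Krt7 (5066, 8239 and 9278) and Krt6a (2729, 8972 and 8635). Krt6a, Krt6b and Krt4 were all lowest in gh03, Krt4 with 253, 1581 and 1175. Krt86, Krt222, Krt20, Krt75 and Krt76 were undetected.

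Among junction genes, which hold epithelial cells together, 29 of 30 were detected and 14 were high. Cldn4, a claudin of tight junctions, had 14323, 19628 and 21751, Cdh1, which encodes E-cadherin, had 14051, 18932 and 21234, and Epcam had 16493, 17858 and 16213. The desmosomal genes Jup and Dsp had 4964, 7551 and 8878 and 4453, 8370 and 8128. Cldn5, a claudin of endothelium, was undetected.

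**Figure D3:**
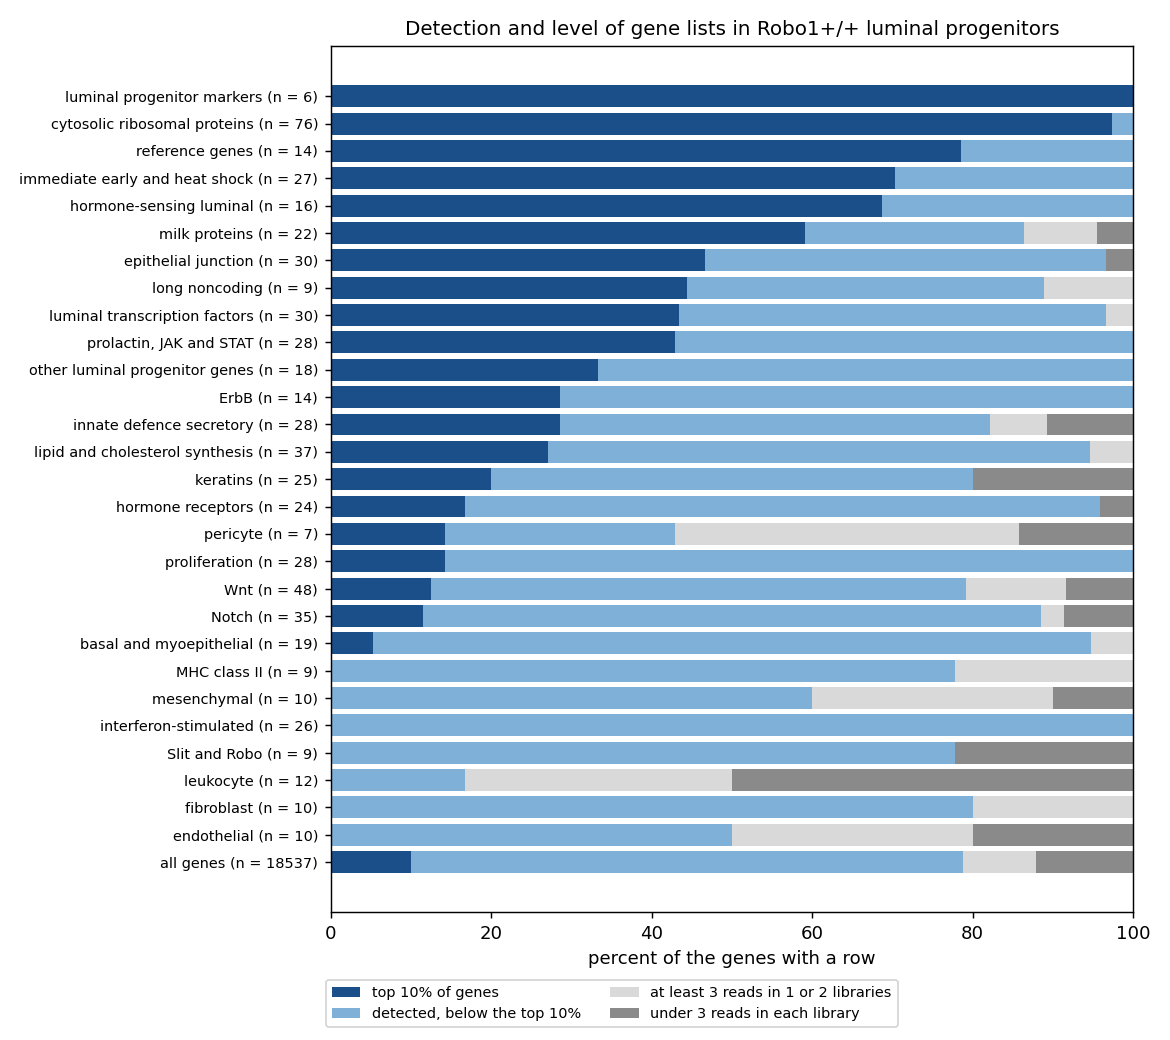
For each gene list with at least 5 rows, the percent of its genes that were high, detected below the top 10%, above the floor in some libraries only, or undetected. All 6 luminal progenitor markers were high, and the leukocyte list had the largest undetected share shown, 6 of 12.

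All 28 genes of prolactin, JAK and STAT signaling were detected and 12 were high (42.9%). Of the receptors, Prlr stood at 2434 per kilobase and Ghr, the growth hormone receptor, at 88.3, with values of 246, 426 and 434. Of the kinases, Jak1 had 3737, 4627 and 4956, Jak2 had 2148, 2706 and 3023, and Jak3 had 461, 611 and 585. Of the transcription factors, Stat3 had 12217, 12688 and 12218, Stat5a had 4026, 3313 and 3366 and Stat5b had 1659, 1628 and 1545. Per kilobase, Stat3 (2048) was above Stat5a (901), and Stat5a was above Stat5b (309), with no overlap among the 3 libraries. Stat3 and Stat5b varied by factors of 1.04 and 1.07, close to the spread of counting alone for Stat5b (SD of 0.053 between libraries and 0.036 from counting, on the log2 scale). Of the feedback inhibitors, Socs3 had 2401, 3714 and 2030, Cish had 1165, 1513 and 1600, and Socs2 had 625, 314 and 431. Lif, a cytokine that acts through Stat3, was high at 5825, 9387 and 11110. Stat4, of lymphocytes, was low and the only variable member, at 63.6, 31.4 and 11.3.

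Of 35 Notch genes with a row 31 were detected and 4 were high, and 0 of the 29 whose mean value reached 20 had a 4-fold range, a share close to the 2.29% of all clusters. Their median range was 1.39-fold, and that of all clusters was 1.35-fold. Of the receptors, Notch3 had values of 3517, 3757 and 3804, Notch1 had 2322, 2170 and 2350, Notch2 had 1111, 1553 and 1196, and Notch4 had 6.36, 7.05 and 10.3. Per kilobase the order was Notch3 (459), Notch1 (240), Notch2 (122) and Notch4 (1.20). Of the ligands, Jag1 had 679, 717 and 658 and was the highest per kilobase (122, against 9.55 for Dll1), while Dll1 had 35.6, 26.7 and 40.3, Dll4 had 22.9, 34.5 and 46.9, Jag2 had 22.9, 16.5 and 7.50, and Dll3 was undetected. Mfng, which adds sugars to the receptors, was undetected too. Adam10, which cleaves the receptors, had 7715, 8445 and 7413, and the nuclear partner Rbpj had 1601, 1558 and 1580. Of the target genes, Hes1 had 816, 727 and 654 and Hey1 had 743, 621 and 395, while Hey2 had 17.8, 28.2 and 24.4 and Hes5 had no read in any of the 3 libraries.

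Of 48 Wnt pathway genes with a row 38 were detected, 6 were high and 4 were undetected (Wnt8a, Dkk1, Wnt2 and Wnt7a). Ctnnb1, which encodes beta-catenin, had 12933, 12575 and 12995 and differed by a factor of 1.03. The co-receptors Lrp5 and Lrp6 were high, at 2851, 3931 and 3583 and at 2919, 3086 and 2523. Among the ligands, Wnt5b had 920, 757 and 660, Wnt7b had 429, 842 and 838, Wnt5a had 206, 627 and 1207, and Wnt4 had 602, 546 and 360. Per kilobase these stood at 333, 201, 97.0 and 120, above the other Wnt ligands with a row. Rspo1, a secreted enhancer of Wnt signaling, had 1316, 154 and 528, and Axin2, a classic target of beta-catenin, had 182, 20.4 and 82.6. Both were highest in gh03 and lowest in gh09, by factors of 8.51 and 8.56.

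All 14 ErbB genes with a row were detected. Areg (10305) and Hbegf (1112) were the highest ligands per kilobase, and Hbegf had values of 1866, 2968 and 3083. Of the receptors, Erbb3 had 3305, 4587 and 4431 and Erbb2 had 1800, 2456 and 2158, Egfr had 585, 556 and 483 and Erbb4 had 108, 70.5 and 76.9. Per kilobase the order was Erbb3 (683), Erbb2 (427), Egfr (53.0) and Erbb4 (7.08). Of the Slit and Robo genes, 7 of 9 were detected and none was high. Robo1 itself, a guidance receptor, had 289, 574 and 541. Robo2 had 10.2, 37.6 and 5.63, the ligands Slit2 and Slit3 had 20.4, 32.9 and 76.0 and 17.8, 11.8 and 4.69, and Robo3 and Slit1 were undetected.

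Of 24 hormone receptors with a row 23 were detected and 4 were high, Prlr, Pgr, Vdr and Esr1, the last above the border in gh09 only. Esr2, the beta form of the estrogen receptor, had no read, which at 3 reads per library allows a value of up to 3.82, 2.35 and 2.81. Nr3c1, the glucocorticoid receptor, had 1090, 881 and 1001. Of 30 luminal transcription factors 29 were detected and 13 were high, among them Nfib (7732, 6102 and 5370) and Xbp1 (4823, 3594 and 3627). Gata3, needed for luminal fate, had 1550, 1180 and 1055.

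All 28 proliferation genes were detected and 4 were high, Pcna (3160, 2144 and 2574), Mki67 (3095, 1564 and 2168), Top2a and Mcm6. Immediate early and heat shock genes, which respond to stress and tissue dissociation, were more abundant, with a median of 1880 per kilobase against 174 for the proliferation list. All 27 were detected and 19 were high (70.4%), with Klf6 at 21704, 20545 and 23099, Fosb at 21032, 19959 and 14142, Atf3 at 19569, 21759 and 12755, and Fos at 22199, 16204 and 14173. Of 37 genes of lipid and cholesterol synthesis 35 were detected and 10 were high, among them Scd1, a stearoyl-CoA desaturase (12087, 12373 and 16180). All 26 interferon-stimulated genes were detected and none was high. Of 9 long noncoding genes 8 were detected, with Neat1 at 11657, 16199 and 17011 and Malat1 at 19607, 11985 and 8670. All 14 reference genes were detected and 11 were high, with Gapdh at 10607, 8772 and 9859. Over the 522 distinct list members with a row, 456 (87.4%) were detected, 138 (26.4%) were high and 32 were undetected.

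The undetected clusters were unevenly spread over gene families, sorted here by the first letters of the symbol. Over all clusters, 12.2% were undetected and 78.8% were detected. Of 28 olfactory receptor clusters 16 were undetected, as were 10 of 19 vomeronasal receptors and 5 of 10 beta-defensins. Genes named Slc (34 of 303 undetected) and collagen genes (4 of 40) lay near the share of all clusters. Every row has a read in some library of the series, so family members without any read are not counted. Of 24 Hox genes 8 were undetected and 3 were detected, Hoxb2, Hoxb3 and Hoxb4, with Hoxb3 at 98.0, 99.5 and 103. Against that, all 56 genes named Eif, 38 proteasome subunits and 41 genes named Nduf were detected, and 337 of 351 zinc finger genes named Zfp were. The Eif and Nduf names cover most translation initiation factors and NADH dehydrogenase subunits, but can hold other genes too.

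The spread between the 3 libraries was small for most genes. It was measured as the range of log2(value + 1), and expressed as a fold, over the 12773 clusters with a mean value of at least 20. The median range was 1.35-fold, 90% of clusters lay below 2.24-fold and 99% lay below 6.23-fold. A range of at least 4-fold was reached by 292 clusters (2.29%). It was reached by 6.66% of the 2479 clusters with a mean value of 20 to 100, by 1.44% of the 6853 from 100 to 1000 and by 0.82% of the 3306 from 1000 to 10000. The median SD of log2(value + 1) was 0.386, 0.216 and 0.179 in these classes, and the median SD that counting alone gives was 0.214, 0.077 and 0.034. Among the genes of the lists above, 29 of 419 reached a 4-fold range (6.92%).

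Library gh03 stood apart from the others most often. Of the 292 variable clusters, gh03 was the library farthest from the middle value in 204 (69.9%), gh09 in 63 (21.6%) and gh15 in 25 (8.6%). Over all 12773 clusters the shares were 51.5%, 26.4% and 22.1%. The library gh03 was the shallowest. Between gh09 and gh15 428 clusters differed by at least 2-fold (3.35%), against 1299 between gh03 and gh09 (10.2%) and 1050 between gh03 and gh15 (8.22%). Without gh03 the count of clusters with a 4-fold range was 42, without gh09 it was 164 and without gh15 it was 215. For the same cluster, a range over fewer libraries cannot exceed that over all of them. A lower count than 292 is therefore largely built into leaving out any library. It is not strictly so, because the mean value of at least 20 was asked of the remaining libraries. That left 12729 clusters without gh03, 12785 without gh09 and 12744 without gh15. The tendency of a library's deviation to follow GC content was weak, with a Spearman rho across genes of -0.09, 0.13 and 0.00 in gh03, gh09 and gh15. The rho with transcript length was -0.12, 0.06 and 0.13. Neither was tested as a source of the spread.

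**Figure D4:**
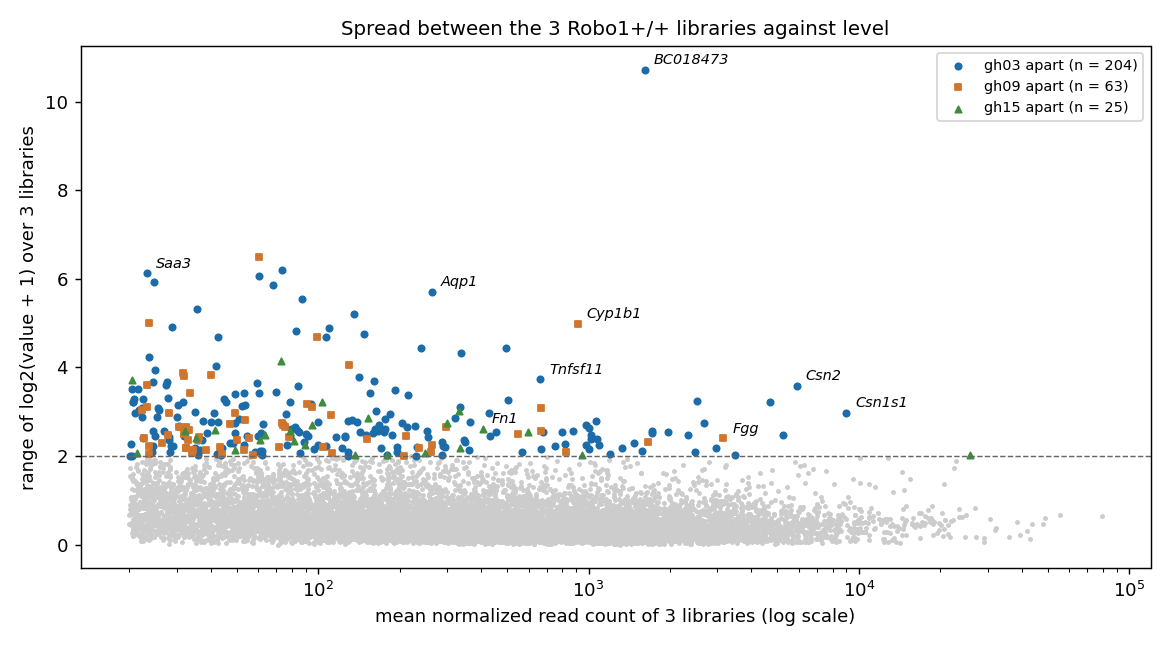
Range of log2(value + 1) over the 3 libraries against the mean value (log scale) for the 12773 clusters with a mean value of at least 20. The dashed line marks 4-fold, and clusters at or above it are coloured by the library that stood apart, gh03 in 204, gh09 in 63 and gh15 in 25.

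In 75 variable clusters gh03 lay above the other libraries, and in 129 below. Those with the largest range above were Saa3, Otof, Klk1, AK006637, Sftpd and Serpinb11. Sftpd, a collectin of mucosal surfaces, had values of 406, 14.1 and 23.5, and Otof, known from synapses of the inner ear, had 172, 1.57 and 8.44. At higher levels Tnfsf11, which encodes RANKL, the signal by which progesterone-sensing cells act on progenitors, had 1660, 199 and 124, and Calca, which encodes calcitonin, had 5518, 578 and 1477. These were named after their values were seen, as were Reg3b, Ido1 and Cxcl13 below. RANKL and calcitonin genes are on the hormone-sensing list, whose median over 16 genes was lowest in gh03, at -0.19 (log2 difference from the mean of the libraries). Below the others in gh03 lay BC018473, Clgn, St6galnac1, Gria4, Aqp1 and Nckap5. BC018473 had 1, 1300 and 4087 reads, the widest range of the 12773 clusters. It lies on chromosome 11 (NCBI37/mm9, 116613481 to 116620687, plus strand) inside the span of St6galnac1 on the minus strand (116600308 to 116636821), which had 0, 18 and 64 reads. Whether the counting used the strand is not given, so reads of this overlapping pair cannot be told apart. Aqp1, a water channel, had values of 10.2, 583 and 198. Reg3b had 5.09, 178 and 222, Ido1, an interferon-inducible tryptophan-degrading enzyme, had 38.2, 849 and 604, and the chemokine Cxcl13 had 5.09, 146 and 178.

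In 52 variable clusters gh09 lay below the other libraries, among them Gjb6, Cyp1b1, Rgs16, Apln and Nr1h5. Cyp1b1, a cytochrome that metabolises estrogen, had values of 2196, 68.2 and 475, and Rgs16, a regulator of G protein signaling, had 165, 5.49 and 126. Rspo1, Axin2 and Krt14 belonged to the same class. In 11 clusters gh09 lay above the others, led by Tnxb, Ttc36, Pik3c2g, Mgat3, Fgg and Dmbt1. Fgg, the fibrinogen gamma chain, had 1389, 6772 and 1286, and Dmbt1, a mucosal defence protein, had 754, 3508 and 702. The libraries gh03 and gh15 lay close together in both.

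In 12 clusters gh15 lay above the other libraries, among them Oas3, Ptpn5, Fn1, Syt15 and Sh2d5, and in 13 below, led by Klk1b8, 5430419D17Rik, 9530053A07Rik, Hba-a2, Hif3a and Zbtb16. Fn1, which encodes fibronectin, had 181, 145 and 892. Zbtb16, a zinc finger factor induced by glucocorticoids, had 863, 788 and 148. Fcgbp was in this class too and had the highest mean value of all variable clusters.

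In some gene lists most members were highest or lowest in the same library, and few of them had a 4-fold range. Over all 12773 clusters, gh03 was the highest library in 37.6%, gh09 in 34.4% and gh15 in 28.0%, and gh03 was the lowest in 42.9%. All 76 cytosolic ribosomal protein genes, a list added after values were seen, were highest in gh03, and none had a 4-fold range. Together they took 5.84% of the summed value in gh03, 4.15% in gh09 and 3.94% in gh15. The median of gh03 minus the mean of the other libraries was 0.53 on the log2 scale for these genes and -0.03 for all clusters. Rpl4 had 29502, 21334 and 19305. The count of 76 was the same with TMM, upper-quartile and total-read scaling. These raised the median difference to 0.56, 0.6 and 0.55, so they could hardly have lowered the count.

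Of 28 proliferation genes, 27 were lowest in gh09, which was the lowest library for 28.8% of all clusters. In turn, 17 were highest in gh03, 10 in gh15 and 1, Aurka, in gh09. Rrm2, a subunit of ribonucleotide reductase, had 906, 318 and 676, and Ccne1, a G1 cyclin, had 186, 47.8 and 116. With TMM or upper-quartile scaling, 19 were highest in gh03. The basal list moved the same way, with 11 of its 14 tested genes highest in gh03 and none in gh09. Their median difference from the mean of the libraries was 0.49, -0.48 and 0.05 in gh03, gh09 and gh15. The part of basal cells in the spread of other genes was not tested.

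The interferon-stimulated list ran opposite to the ribosomal genes. Of its 25 genes whose mean value reached 20, 21 were lowest in gh03 and 21 were highest in gh15, with medians of -0.65, 0.12 and 0.49 in gh03, gh09 and gh15. Oas2, an antiviral synthetase, had values of 75.1, 234 and 449, and Rsad2, which encodes viperin, had 35.6, 110 and 256. Irf7, their transcriptional regulator, had 109, 268 and 282. Bst2 and Cxcl10 did not follow this order, at 406, 304 and 371 and at 219, 132 and 279. Of the 28 junction genes 21 were lowest in gh03 and 17 were highest in gh15, for example Dsc2 with 822, 1449 and 1963 and Pkp1 with 640, 1668 and 1735. Of the 28 prolactin, JAK and STAT genes, 18 were lowest in gh03. Of 27 immediate early and heat shock genes 17 were highest in gh03, such as Junb with 1826, 876 and 646. Of 29 Notch genes 15 were highest in gh09, although their median deviation there was only 0.07. The markers of luminal progenitors moved little, with medians of -0.08, 0.03 and 0.05.

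**Figure D5:**
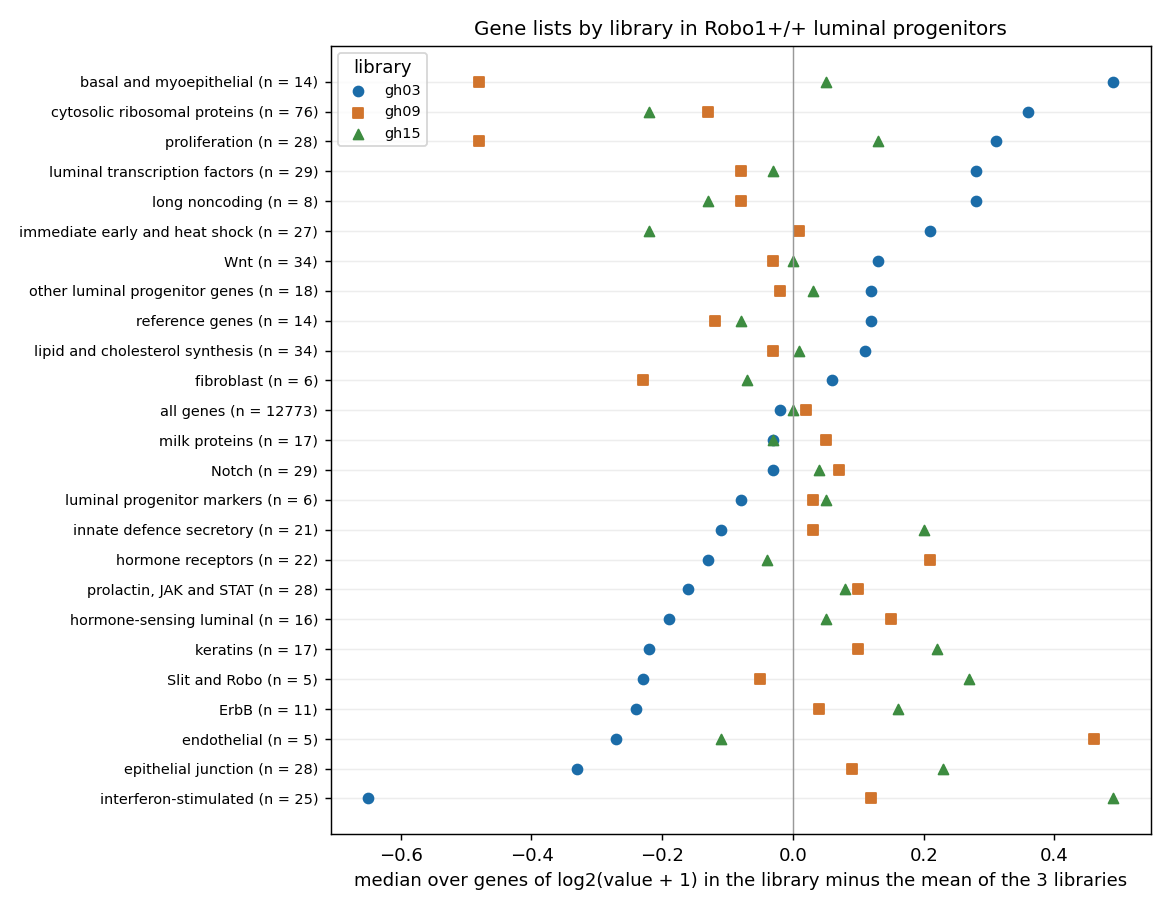
Median over the genes of each list, among those whose mean value reached 20, of log2(value + 1) in a library minus the mean of the 3 libraries. The interferon-stimulated list spans -0.65 in gh03 to 0.49 in gh15, the basal list spans 0.49 in gh03 to -0.48 in gh09, and all clusters together lie between -0.02 and 0.02.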

How the data were processed

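Poly(A)+ RNA of sorted Robo1+/+ luminal progenitors was sequenced in 3 libraries. The deposited values are a normalized signal per known-gene cluster: the authors divided read counts by 1 size factor per library. Whether these factors were set over the 6 libraries alone was not checked. They used Bowtie, TopHat, SAMtools and DESeq, with build mm9, per the labels, and removed reads from repeat elements first. Counting tool, strand use and multi-mapping rule are not given in the sources used here. All values in the 3 libraries were whole reads within a tolerance of 0.1 read once divided by the value of 1 read.

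Ranks, ranges of log2(value + 1) and list counts were computed with Python (version 3.11.15, pandas 2.3.3). TMM and upper-quartile factors came from edgeR (version 4.0.16, R 4.3.3) on the recovered reads. By symbol, 16480 clusters (88.9%) were found in GENCODE M1, which gave positions and longest transcripts, and 15999 had a GC value. 583 clusters shared a symbol, and the one with the highest mean stood for it in a list. Replicates differed far beyond sampling noise (chi-square per gene from 21.2 to 54.0), so none was a repeat.

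The rule for named genes covered markers and sort genes, the 20 highest by value and per kilobase, the 5 highest and the undetected members of each list, and the 6 variable clusters with the largest range in each class. The text gives values for part of these, and its other genes were chosen after their values were seen. The ribosomal list, the symbol families and the mitochondrial run were added at that stage too. The members and the 32 lists were chosen with earlier results of these data known. Alternatives covered the read minimum, pseudocount, filter, scaling, GC correction, thresholds and each library left out. Some items that fell under this rule are not reported here.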

Additional observations from a re-analysis of the deposited data

How the results depend on the processing

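Depth limits statements on low genes: 3 reads were worth 3.82 in gh03, 2.35 in gh09 and 2.81 in gh15, and 3 libraries give a rough estimate of spread. The count of detected clusters lay between 13071 (at least 10 reads) and 15980 (at least 1 read), and between 14782 and 15079 with a library left out. The count of clusters with a 4-fold range was 127 with a mean value of at least 100 and 978 with no filter. It stayed between 245 and 392 under other pseudocounts, a mean of at least 10, the 3 other scalings and the GC correction. With a library left out it lay between 42 and 215, the lowest without gh03, where a range over fewer libraries lowers the count by itself. Of the 291 clusters called with TMM scaling 289 were shared with the deposited scaling, as were 253 of 264 after GC correction, which could be made for 11875 clusters only.

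The share of the 10 leading clusters was 4.34% per kilobase, and 3.35% to 3.61% with a library left out. Of the 20 leading genes 8 stayed per kilobase, and 17 to 19 with a library left out. Of the list members 7 were undetected with a minimum of 1 read. Those with a 4-fold range numbered 3 to 23 with a library left out, again with the range taken over fewer libraries. Among the lists with at least 5 genes tested for the range, for those whose median of gh03 minus the other libraries was past 0.3 on the log2 scale, the direction was kept with every scaling, an alternative chosen after seeing the data. A scaling applies 1 factor to a whole library, and the median of all clusters lay between -0.03 and 0.04 throughout. Keeping these directions was therefore built in. The medians of the Notch and milk lists, near 0, changed sign to 0.02 with upper-quartile scaling. No paired analysis was possible because no groups were compared.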
